A study of Danio rerio with 26 samples.

Results

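Zebrafish oocytes of stage III were compared with oocytes of stage II by RNA sequencing, across all genes. The comparison rests on 4 of the 26 libraries of the series, 2 of each stage, and was taken from the table that also holds stages I and IV. Of the 32520 genes in that table, 16067 reached 1 TPM (a length-corrected share of a library, scaled to a total of 1000000) in at least 2 of the 8 oocyte libraries and were tested. Each library was made from 50 pooled oocytes of fish whose genotype is labelled AB, TF and TLF. No mutant or treatment is named for either stage. Stage III oocytes, with a central germinal vesicle (the oocyte nucleus), were taken 4 to 7 days after a mating that purged the females of ripe eggs and were freed with Collagenase I alone. Stage II oocytes were taken 1 to 2 days after the purge and were freed with Collagenase I and Collagenase II. The day of collection and the enzymes therefore differ together with the stage, and their parts in a difference cannot be told apart. The same table holds stage I, taken and freed like stage II, and stage IV, taken 8 to 10 days after the purge and stripped by hand with no enzyme.

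In the zebrafish ovary, stage II is the cortical alveolus stage, in which the oocyte fills with secretory vesicles that it later releases at fertilisation. Stage III is the phase of vitellogenesis, when vitellogenin made by the liver is taken up from the blood by receptor-mediated endocytosis and stored as yolk. Each oocyte lies in a follicle, under an envelope of zona pellucida proteins, a layer of granulosa cells and an outer layer of theca cells with vessels. The follicle cells respond to follicle-stimulating hormone and make estradiol with the enzyme aromatase, which in turn drives vitellogenin synthesis in the liver. A pool of whole oocytes can carry such cells with it, and fewer cells of a type cannot be told apart here from less RNA per cell.

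The libraries matched their oocyte label: the zona pellucida genes held 5.56% and 5.64% of TPM in stage III, against 6.37% and 6.04% in stage II. Across genes, which are not independent replicates, log2(TPM + 1) of the stage III libraries correlated with r = 0.979 and that of the stage II libraries with r = 0.984, against 0.943 to 0.967 between the stages. No pair of libraries was identical (0 pairs). Depth is unknown, since TPM keeps none, and from 13579 to 14039 genes reached 1 TPM in each of these 4 libraries.

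More genes rose than fell. At least 2-fold, 319 genes rose in stage III (1.99% of those tested) and 66 fell (0.411%), by limma with Benjamini-Hochberg adjustment at 0.05. Without adjustment 3127 of the 16067 tested genes had a p under 0.05. Counts of list members at an unadjusted p under 0.05, given below, are to be read beside that share. The genes that rose were mostly low in the younger oocytes: their median was 7.68 TPM in stage III and 0.67 TPM in stage II, and 178 of them averaged under 1 TPM in stage II. Together they held 5.25% and 4.30% of TPM in stage III, against 0.947% and 1.28% in stage II. A few abundant genes, most of them mitochondrially encoded, made up much of these shares. Among them mt-co2 had 9889 and 8756 TPM in stage III, against 1975 and 3240 TPM in stage II. A gene annotated as MFAP4 had 7379 and 4610 TPM in stage III, against 85.8 and 119 TPM in stage II. The genes that fell had a median of 8.51 TPM in stage III and 33.0 TPM in stage II. The median change of all tested genes was -0.16 on the log2 scale. It moved to 0.00 after median-of-ratios scaling, under which 89.0% of the calls were rises, against 82.9% without it.

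Precision was low with 2 libraries a side. Without any difference, the values of the 2 stages would still separate fully with probability 0.333. Remarks below that the stages did not overlap are therefore description only. With any 1 of these 4 libraries left out, far fewer genes rose or fell at least 2-fold. Without stage III replicate 2, most of the genes that fell were not among the 66 of the main fit. Of the 62 called genes named below, from 45 to 57 lost the call when 1 library was left out. The 8 genes called in every one were si:dkey-26c10.5, si:ch73-217n20.1, nr5a1a, cmah, 1 copy of MFAP4, the endothelin gene edn1 and the myosin light chain gene myl9a, which rose, and hepacam2, an adhesion molecule of the immunoglobulin family, which fell.

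**Figure D1:**
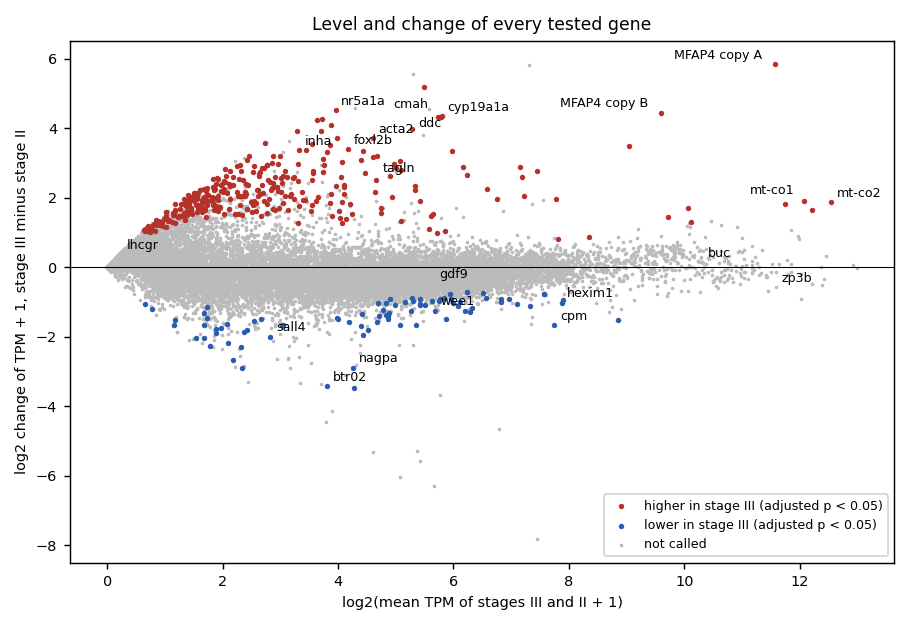
Change of each of the 16067 tested genes (vertical axis, log2 change of TPM + 1, stage III minus stage II) against its mean level in the 2 stages (horizontal axis, log2 scale), with red points for genes that rose, blue for genes that fell and grey for genes not called, with no fold minimum. Rises reach 5.84 on the log2 scale for MFAP4 copy A and falls reach -3.49, and some grey points lie farther from 0 than the called ones.

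The largest rise was that of a gene annotated as MFAP4, named for a microfibril-associated glycoprotein of the extracellular matrix. This copy A, ENSDARG00000116066, had 7379 and 4610 TPM in stage III, against 85.8 and 119 TPM in stage II (log2 5.84, SE 0.41, limma adjusted p = 0.00188). It had 1.00 and 2.72 TPM in stage I, and 8648 and 16503 TPM in stage IV. A copy B, ENSDARG00000111491, had 1767 and 1203 TPM in stage III, against 55.8 and 77.8 TPM in stage II (log2 4.45, SE 0.84, limma adjusted p = 0.0401). Both copies were high in both stage III libraries and the stages did not overlap. In stage IV copy B was down at 19.0 and 184 TPM while copy A stayed high. Of 8 genes named for MFAP4, 6 were tested. These 2 rose (33.3%, against 2% of all tested genes) and 0 fell, and 3 of the 6 had a negative change. The 8 together held 0.915% and 0.582% of TPM in stage III, against 0.0143% and 0.0200% in stage II. Reads can be split between such copies, and copy A carries another name in the oocyte table itself, so the value of a single copy is uncertain. Without any 1 library copy B was not called (adjusted p from 0.123 to 0.266).

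A pair of genes central to steroid synthesis were also among the 12 largest rises. nr5a1a encodes a nuclear receptor of the steroidogenic factor 1 kind, which in mammals switches on the genes of steroid-making enzymes. It had 39.2 and 18.7 TPM in stage III, against 0.22 and 0.24 TPM in stage II (log2 4.51, SE 0.37, limma adjusted p = 0.00303). It was low throughout stages I and II and stayed high in stage IV, at 61.2 and 70.1 TPM. cyp19a1a encodes the ovarian aromatase, which turns androgens into estrogens. It had 127 and 82.8 TPM in stage III, against 3.52 and 4.68 TPM in stage II (log2 4.35, SE 0.65, limma adjusted p = 0.0172). Its level was highest in stage III, with 0.25 and 0.12 TPM in stage I and 1.07 and 9.01 TPM in stage IV. Without any 1 of the 4 libraries its call ended (adjusted p from 0.0674 to 0.159), while its change stayed between 4.05 and 4.66.

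The remaining large rises included those of 2 enzyme genes, cmah and ddc, and of efemp2b. cmah, whose enzyme hydroxylates the sialic acid precursor CMP-N-acetylneuraminic acid, had 116 and 83.8 TPM in stage III, against 3.07 and 5.20 TPM in stage II (log2 4.31, SE 0.29). ddc, the aromatic amino acid decarboxylase that makes dopamine and serotonin, had 86.5 and 58.7 TPM in stage III, against 2.83 and 4.42 TPM in stage II (log2 3.99, SE 0.31). efemp2b, a fibulin of elastic fibres, had 28.5 and 19.5 TPM in stage III, against 0.17 and 0.40 TPM in stage II (log2 4.27, SE 0.57). In each of these genes both stage III libraries lay above both stage II libraries, and replicate 1 was the higher of the stage III libraries. The remaining 5 of the 12 carry only clone-based names: si:dkey-26c10.5 (log2 5.19, with 98.7 and 74.1 TPM in stage III, against 1.27 and 1.48 TPM in stage II), si:ch73-217n20.1 (4.32), si:dkey-31e10.5 (4.23), BX664750.3 (4.10) and si:dkey-119m7.8 (3.93). The 12 had limma adjusted p-values from 0.000802 to 0.0401.

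**Figure D2:**
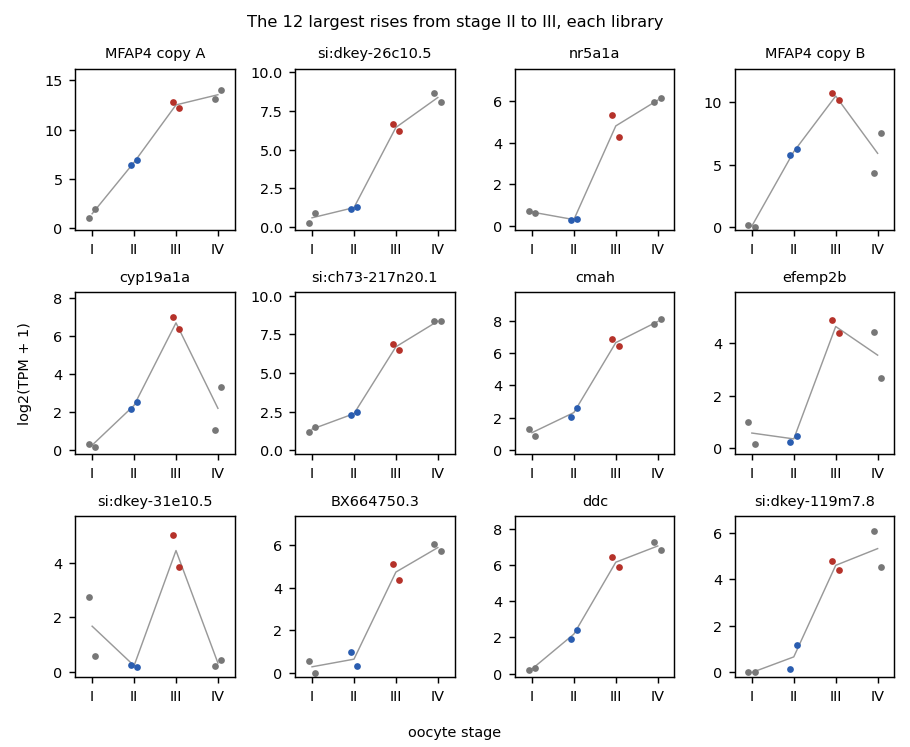
Level of the 12 genes with the largest rise (vertical axes, log2(TPM + 1)) in oocytes of stages I to IV (horizontal axes), with 1 point per library, stage III in red, stage II in blue, and a line through the stage means. All points of stage III lie above those of stage II. The lines of cyp19a1a, MFAP4 copy B, si:dkey-31e10.5 and efemp2b peak in stage III, while nr5a1a, cmah and ddc stay high in stage IV.

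Most tested genes that mark the somatic cells of the follicle rose. Of 20 such genes 14 were tested, and 8 of these rose and 0 fell, where 2% of all tested genes rose and 0.529% fell with no fold minimum. Genes near 0 in stages I and II, such as nr5a1a, passed the filter only through stages III and IV and could hardly fall. The 6 untested genes reached 1 TPM in at most 1 library. Counts and medians of this and the later marker lists are therefore partly set by the filter and are description only. The median change of the 14 was 2.33 on the log2 scale, against -0.16 for all genes. Their summed level was 305 and 203 TPM in stage III, against 22.4 and 31.4 TPM in stage II. The list summed to 11.3 and 17.7 TPM in stage I and to 544 and 621 TPM in stage IV. Without 1 library, from 1 to 6 of the 14 were called as risen.

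Beside nr5a1a and cyp19a1a, the granulosa transcription factor gene foxl2b had 34.5 and 29.4 TPM in stage III, against 2.08 and 2.12 TPM in stage II (log2 3.40, SE 0.27, limma adjusted p = 0.00303). inha, the alpha subunit of the hormone inhibin, had 22.6 and 12 TPM in stage III, against 0.48 and 0.94 TPM in stage II (log2 3.37, SE 0.34, limma adjusted p = 0.00617). inhbaa, a beta subunit of activin and inhibin, nr5a2, another nuclear receptor, the laminin gene lamb1a and the keratin gene krt18b rose as well, by 2.46, 2.15, 2.97 and 2.78. The receptor genes were low. fshr, the receptor of follicle-stimulating hormone, had 2.71 and 2.90 TPM in stage III, against 0.11 and 0.34 TPM in stage II, and did not pass the test (log2 1.64, SE 0.37, limma adjusted p = 0.0680). lhcgr, the receptor of luteinising hormone, had 0.39 and 0.26 TPM in stage III, against 0.00 and 0.07 TPM in stage II, and 31.6 and 42.4 TPM in stage IV. The growth factor gene gsdf, which marks granulosa cells in fish, was not called: it had 12.4 and 12.1 TPM in stage III, against 10.9 and 17.4 TPM in stage II (log2 -0.16, adjusted p = 0.863, limma), and the stages overlapped. amh stayed under 1 TPM in all 4 libraries and was not tested.

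Among 11 tested steroidogenic genes, 3 rose (27.3%, against 2% of all tested genes) and 0 fell in stage III. After median-of-ratios scaling 4 rose. hsd17b1, whose enzyme reduces estrone to estradiol, had 62.9 and 46.2 TPM in stage III, against 4.26 and 8.27 TPM in stage II (log2 2.97, SE 0.40, limma adjusted p = 0.0132). hsd3b1, needed to make progesterone from pregnenolone, had 6.90 and 6.34 TPM in stage III, against 0.50 and 0.44 TPM in stage II (log2 2.37, SE 0.29). star, which brings cholesterol into the mitochondrion, had 3.10 and 4.21 TPM in stage III, against 0.17 and 0.22 TPM in stage II (log2 1.95, SE 0.28). These 3 genes were low in stage II in both libraries. Members that were already high in stage II were not called: cyp11a1, the side-chain cleavage enzyme that opens steroid synthesis, had 281 and 277 TPM in stage III, against 240 and 251 TPM in stage II (log2 0.18), and cyp17a1, the enzyme leading to androgens, had 56.5 and 56.7 TPM in stage III, against 61.3 and 58.9 TPM in stage II (log2 -0.08). The list median was 0.18, and without 1 library from 0 to 1 members were called.

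Markers of other ovarian cell types rose in part. Of 18 tested stromal and vessel wall genes 5 rose (27.8%, against 2% of all tested genes) and 0 fell, with a median of 1.29. Their sum was 169 and 145 TPM in stage III, against 31.6 and 29.6 TPM in stage II. acta2, the actin of smooth muscle, had 44.7 and 43.6 TPM in stage III, against 2.04 and 2.86 TPM in stage II (log2 3.72, SE 0.35, limma adjusted p = 0.00497). tagln, the smooth muscle protein transgelin, had 50.9 and 39.8 TPM in stage III, against 3.17 and 4.92 TPM in stage II (log2 3.21, SE 0.33). The fibrillar collagen gene col1a1a, a marker of fibroblasts, stood at 5.05 and 3.70 TPM in stage III, against 2.45 and 2.07 TPM in stage II, and was not called (log2 0.71, limma adjusted p = 0.279).

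Of 8 tested blood genes 2 rose (25%, against 2% of all tested genes) and 0 fell, with a median of 1.32. Their sum was 94.7 and 46.3 TPM in stage III, against 5.63 and 7.19 TPM in stage II. A copy of hbba1, a beta globin of red cells, had 29.3 and 19.5 TPM in stage III, against 1.2 and 1.85 TPM in stage II (log2 3.32, SE 0.53, limma adjusted p = 0.0225), a value that is uncertain because another gene bears the same symbol. Of 9 tested endothelial genes 0 rose and 0 fell by limma, with 3 at an unadjusted p under 0.05 and a median of 0.18. The vessel receptor gene kdrl had 5.02 and 5.08 TPM in stage III, against 5.23 and 3.58 TPM in stage II. Of 11 tested immune genes 2 rose (18.2%, against 2% of all tested genes) and 0 fell, with a median of 0.54. After median-of-ratios scaling 1 rose. cd74a, the invariant chain of antigen presentation, had 18.5 and 12.9 TPM in stage III, against 2.57 and 4.11 TPM in stage II (log2 1.95, SE 0.36), and its relative cd74b rose by 1.84. The leukocyte gene ptprc stayed under 1 TPM in all 4 libraries and the macrophage gene mpeg1.1 was at 0.06 and 0.03 TPM in stage III, against 0.00 and 0.05 TPM in stage II.

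Of 11 tested keratin genes, whose proteins form the filaments of epithelial cells, 4 rose (36.4%, against 2% of all tested genes) and 0 fell (median 1.19). Among the 4 is krt18b, which the follicle list above counts as well. krt8 had 77.7 and 55.2 TPM in stage III, against 11.5 and 12.8 TPM in stage II (log2 2.34, SE 0.29, limma adjusted p = 0.0110), and krt91 had 36.3 and 20.8 TPM in stage III, against 0.78 and 1.59 TPM in stage II (log2 3.73, SE 0.62, limma adjusted p = 0.0245). In every one of the follicle, stromal, blood, immune and keratin lists the summed level was higher in replicate 1 than in replicate 2 of stage III. Without 1 library, from 0 to 2 stromal, 0 blood, 0 immune and from 0 to 1 keratin genes were called. The part that attached follicle cells or their removal had in these rises was not tested.

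**Figure D3:**
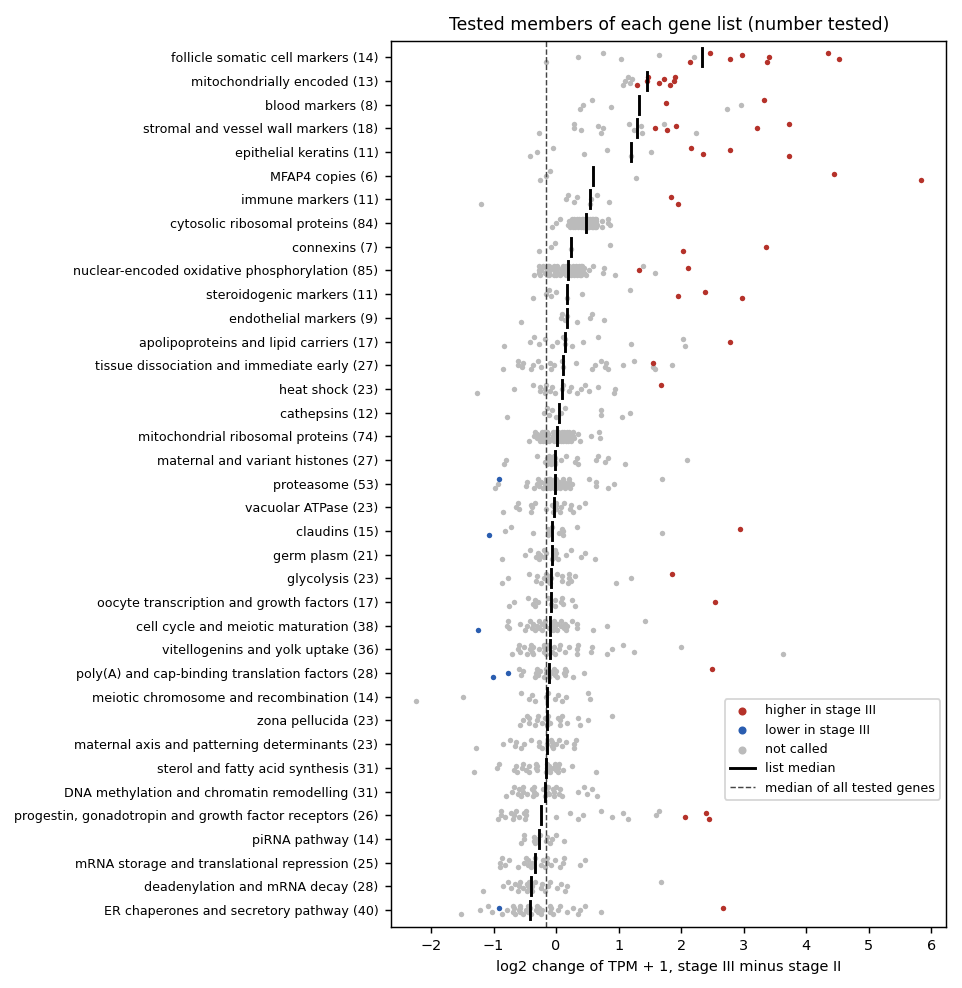
Change of the tested members of 37 gene lists (horizontal axis, log2 change of TPM + 1, stage III minus stage II), with 1 point per gene, red for genes that rose, blue for genes that fell, grey for genes not called, a black bar at the list median and a dashed line at the median of all tested genes, -0.16. Follicle, mitochondrially encoded, blood, stromal and keratin lists lie to the right with medians from 1.19 to 2.33; the zona pellucida, germ plasm, meiotic and piRNA lists have medians from -0.28 to -0.07.

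A few junction genes rose as well. Of 7 tested connexin genes, which build gap junctions, 2 rose (28.6%, against 2% of all tested genes) and 0 fell. cx34.5 had 134 and 92.3 TPM in stage III, against 7.64 and 13.0 TPM in stage II (log2 3.35, SE 0.29, limma adjusted p = 0.00356), and cx43 had 54.4 and 42.1 TPM in stage III, against 8.70 and 13.9 TPM in stage II (log2 2.02, SE 0.42, limma adjusted p = 0.0497). Of 15 tested claudin genes, of tight junctions, 1 rose and 1 fell (6.67% each, against 2% and 0.529% of all tested genes). The rise was cldn11a, with 15.2 and 7.12 TPM in stage III, against 0.38 and 0.63 TPM in stage II (log2 2.94). The fall was cldnk, which was at about 1 TPM in stage II and nearly at 0 in stage III. cldn11a went on to 330 and 265 TPM in stage IV.

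Of 26 tested hormone and growth factor receptor genes 3 rose (11.5%, against 2% of all tested genes) and 0 fell. Their median change was -0.24 (-0.15 after median-of-ratios scaling, under which 4 rose), 12 had a positive and 13 a negative change, and 15 had an unadjusted p under 0.05. Over all tested genes the median was -0.16, and 3127 of 16067 had such a p-value. egfra, the receptor of epidermal growth factor, had 12.4 and 9.52 TPM in stage III, against 1.19 and 1.15 TPM in stage II (log2 2.45, SE 0.28, limma adjusted p = 0.00959). esr2b, an estrogen receptor, had 5.13 and 6.17 TPM in stage III, against 0.22 and 0.31 TPM in stage II (log2 2.39, SE 0.27). pgr, the nuclear progestin receptor, had 4.26 and 4.33 TPM in stage III, against 0.34 and 0.20 TPM in stage II (log2 2.06). All 3 were low in stages I and II and higher still in stage IV, where pgr had 69.7 and 56.6 TPM. igf3, an insulin-like growth factor of the fish gonad, was called as risen with 7.16 and 3.11 TPM in stage III and is listed at 0 in both stage II libraries. The membrane progestin receptor gene paqr7b stayed under 1 TPM in all 4 libraries and was not tested.

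Most transcripts made by the mitochondrial genome rose. Of the 13 protein-coding genes 8 rose (61.5%, against 2% of all tested genes) and 0 fell, all 13 had an unadjusted p under 0.05, and the median change was 1.45. They held 4.80% and 4.05% of TPM in stage III, against 1.32% and 1.66% in stage II. mt-co1, the catalytic subunit of cytochrome c oxidase, had 7108 and 6567 TPM in stage III, against 1621 and 2042 TPM in stage II (log2 1.91, SE 0.26, limma adjusted p = 0.0133). mt-co2 had 9889 and 8756 TPM in stage III, against 1975 and 3240 TPM in stage II (log2 1.88), mt-co3 rose by 1.65, mt-nd3 by 1.72 and mt-cyb, of respiratory complex III, by 1.82. Both stage III libraries lay above both stage II libraries for all of these, and the sum was already higher in stage II than in stage I, where the list held 0.188% and 0.268% of TPM. After median-of-ratios scaling 4 of the 13 were called, with a median of 1.64, and without 1 library 0 were called, with medians from 1.31 to 1.55.

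Of 85 tested nuclear genes of oxidative phosphorylation 2 rose (2.35%, near the 2% of all tested genes) and 0 fell, with a median of 0.19, and their sum was 16423 and 17397 TPM in stage III, against 13659 and 16562 TPM in stage II. Both were subunits of cytochrome c oxidase: cox6b1 had 17.6 and 10.2 TPM in stage III, against 1.68 and 3.13 TPM in stage II (log2 2.11, SE 0.36), and cox8a had 52.1 and 43.1 TPM in stage III, against 16.1 and 21.0 TPM in stage II (log2 1.32, SE 0.23). Of 74 mitochondrial ribosomal protein genes 0 were called by limma, with 4 at an unadjusted p under 0.05 and a median of 0.02. Of 84 cytosolic ribosomal protein genes 0 were called, with 25 at an unadjusted p under 0.05 (over all tested genes 3127 of 16067). Even so 82 of the 84 had a positive change, with a median of 0.48 (0.66 after median-of-ratios scaling), and their sum was 72772 and 74998 TPM in stage III, against 47655 and 60266 TPM in stage II.

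**Figure D4:**
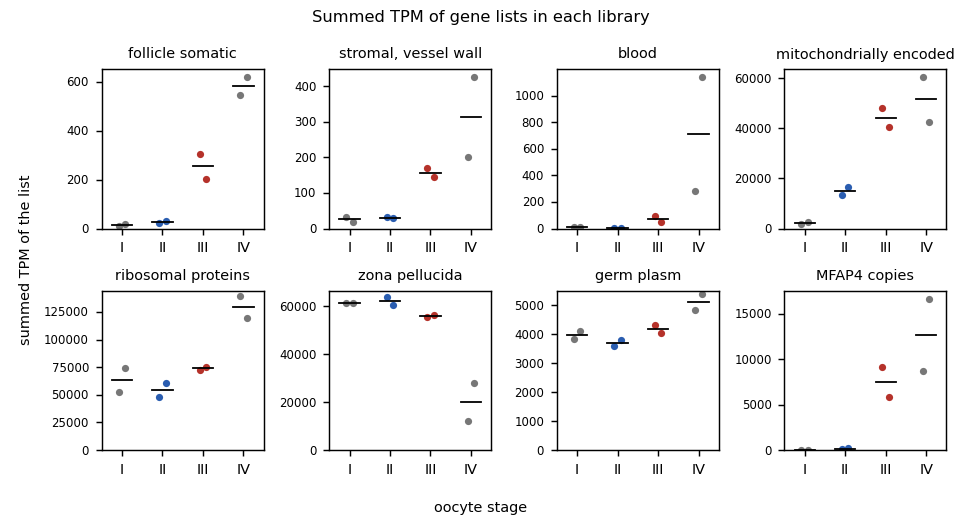
Summed TPM of 8 gene lists (vertical axes, each from 0) in oocytes of stages I to IV (horizontal axes), with 1 point per library, stage III in red, stage II in blue, and a bar at the mean of the 2 libraries. Both stage III points lie above both stage II points in every panel but that of the zona pellucida genes, where they lie below. In the germ plasm panel the sum is higher although 15 of the 21 genes had a negative change and 0 were called.

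For the lists of the egg envelope and of the oocyte itself, counts of 0 or 1 call are near the background, 2% of all tested genes higher and 0.529% lower, and do not set a list apart. The most abundant transcripts of both stages included si:dkey-241l7.2, with 7837 and 8285 TPM in stage III, against 7503 and 8959 TPM in stage II. A copy of the zona pellucida gene zp3.2 was another, with 8419 and 7433 TPM in stage III, against 7734 and 7396 TPM in stage II. Its value is uncertain, since another gene bears the same symbol, with 2565 and 2489 TPM in stage III, against 3063 and 2864 TPM in stage II. In stage III the other genes of the top 5 were mt-co1, mt-co2 and mt-co3, and in stage II they were the zona pellucida genes zp3, zp2.2 and zp2.1. Of 23 zona pellucida genes 0 were called by limma, 2 had an unadjusted p under 0.05, and the median of -0.15 became 0.04 after median-of-ratios scaling. zp3b had 2387 and 2567 TPM in stage III, against 3770 and 3595 TPM in stage II (log2 -0.57, SE 0.29, limma adjusted p = 0.322), and zp2.1 had 3549 and 4410 TPM in stage III, against 5932 and 5084 TPM in stage II (log2 -0.47). For both genes the stages did not overlap, but the difference did not pass the test.

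Of 17 tested genes listed as oocyte transcription and growth factors igf3 was the 1 called, and the median was -0.09 (0.10 after median-of-ratios scaling). igf3 went on to 92.1 and 72.1 TPM in stage IV, and which cells of these pools hold it was not tested. gdf9, a growth factor by which the oocyte acts on its follicle cells, had 41.1 and 42.6 TPM in stage III, against 56.6 and 58.4 TPM in stage II (log2 -0.45, SE 0.25, limma adjusted p = 0.352). bmp15, its relative, had 160 and 174 TPM in stage III, against 211 and 209 TPM in stage II (log2 -0.33, SE 0.13, limma adjusted p = 0.227). The oocyte transcription factor gene figla had 32.7 and 38.3 TPM in stage III, against 37.4 and 50.4 TPM in stage II (log2 -0.29), and the stages overlapped. zar1, needed for oocyte growth and for keeping maternal mRNA silent, had 563 and 699 TPM in stage III, against 1082 and 1030 TPM in stage II (log2 -0.75, SE 0.24, limma adjusted p = 0.154). org had 1102 and 1106 TPM in stage III, against 926 and 1192 TPM in stage II.

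Germ plasm genes, which later mark out the primordial germ cells, were not called in any of 21 cases by limma, with 3 at an unadjusted p under 0.05 and a median of -0.07 (0.11 after median-of-ratios scaling). Their sum was 4301 and 4034 TPM in stage III, against 3607 and 3812 TPM in stage II, although 15 of the 21 had a negative change. A large part was ca15b, not called, with 951 and 932 TPM in stage III, against 488 and 766 TPM in stage II. buc, the organiser of the Balbiani body, had 1377 and 1300 TPM in stage III, against 1142 and 1272 TPM in stage II (log2 0.15, SE 0.20). ddx4, the RNA helicase Vasa, had 144 and 139 TPM in stage III, against 173 and 173 TPM in stage II (log2 -0.29), dazl had 126 and 153 TPM in stage III, against 125 and 161 TPM in stage II (log2 -0.03), and nanos3 had 44.5 and 25.8 TPM in stage III, against 38.5 and 47.5 TPM in stage II (log2 -0.33). Of these 4 genes buc was higher and ddx4 lower in both stage III libraries, and dazl and nanos3 overlapped. Such separation has probability 0.333 for a gene without a difference, so it sets neither gene apart. Of 14 piRNA pathway genes, which silence transposons, 0 were called, with 2 at an unadjusted p under 0.05 and a median of -0.28. Of 14 tested genes of the meiotic chromosome and of recombination 0 were called, with 0 at an unadjusted p under 0.05.

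Maternal factors that activate the embryo's genome were not called. nanog had 210 and 118 TPM in stage III, against 170 and 160 TPM in stage II (log2 -0.06), sox19b had 36.4 and 33.6 TPM in stage III, against 37.5 and 30.7 TPM in stage II (log2 0.04), and pou5f3 had 13.3 and 12.8 TPM in stage III, against 15.6 and 15.4 TPM in stage II (log2 -0.23). znf281b, the zinc finger gene that the series also knocked down in embryos, had 9.40 and 12.7 TPM in stage III, against 20.3 and 21.6 TPM in stage II (log2 -0.88, SE 0.24, limma adjusted p = 0.116). Both of its stage III values lay below both stage II values, but the difference did not pass the test. Of 23 tested axis and patterning determinants 0 were called, with 3 at an unadjusted p under 0.05.

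The medians of the mRNA storage and the mRNA decay lists lay below the -0.16 of all tested genes (0.00 after median-of-ratios scaling). Of 25 tested storage and repression genes 0 were called by limma, 8 had an unadjusted p under 0.05, and the median was -0.34 (-0.16 after median-of-ratios scaling). Of 28 deadenylation and decay genes 0 were called, 10 had an unadjusted p under 0.05, and the median was -0.40 (-0.22 after that scaling, under which 1 rose). Over all tested genes 3127 of 16067 had such a p-value. btg4, which recruits the deadenylase to maternal mRNA, had 356 and 479 TPM in stage III, against 324 and 413 TPM in stage II (log2 0.17), and the stages overlapped. Of 28 tested poly(A)-binding and translation factor genes 1 rose (3.57%) and 2 fell (7.14%), against 2% and 0.529% of all tested genes. Their median was -0.12 (0.06 after that scaling), above that of all tested genes. pabpc1b, a poly(A)-binding protein, had 19.5 and 12.3 TPM in stage III, against 2.01 and 1.88 TPM in stage II (log2 2.49, SE 0.43, limma adjusted p = 0.0277). eif4ea, which binds the mRNA cap, had 64.6 and 84.8 TPM in stage III, against 137 and 164 TPM in stage II (log2 -1.01, SE 0.19, limma adjusted p = 0.0412), and eif4a1a, the helicase of the same complex, had 152 and 127 TPM in stage III, against 242 and 235 TPM in stage II (log2 -0.78, SE 0.15). Both falls lost their calls after median-of-ratios scaling, under which 0 of the 28 fell.

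Among 38 tested cell cycle genes 1 fell (2.63%) and 0 rose, against 0.529% and 2% of all tested genes. After median-of-ratios scaling 1 fell and 1 rose. A count of 1 does not set the list apart. wee1, the kinase that holds Cdk1 inactive, had 25.6 and 33.2 TPM in stage III, against 76.8 and 65.0 TPM in stage II (log2 -1.25, SE 0.21, limma adjusted p = 0.0258). It stood at 69.0 and 64.3 TPM in stage I and at 6.33 and 4.96 TPM in stage IV. The Cdk1 gene itself, cdk1, had 210 and 237 TPM in stage III, against 190 and 236 TPM in stage II (log2 0.07), and its cyclin gene ccnb1 had 1334 and 1392 TPM in stage III, against 1513 and 1808 TPM in stage II (log2 -0.28). mos, the kinase of meiotic arrest, had 218 and 209 TPM in stage III, against 169 and 191 TPM in stage II (log2 0.25). None of these 3 genes passed the test. Without any 1 library wee1 was not called (adjusted p from 0.0716 to 0.255).

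Of 36 tested genes of vitellogenin and yolk uptake 0 were called by limma, a count near the background (2% of all tested genes higher and 0.529% lower), with 4 at an unadjusted p under 0.05 and a median of -0.10 (0.07 after median-of-ratios scaling). lrp13, of the low-density lipoprotein receptor family, had 738 and 657 TPM in stage III, against 977 and 867 TPM in stage II (log2 -0.40), vldlr had 283 and 255 TPM in stage III, against 381 and 275 TPM in stage II (log2 -0.27), and the endocytic adaptor gene dab2 had 354 and 326 TPM in stage III, against 454 and 265 TPM in stage II (log2 -0.03). vtg1, the vitellogenin gene known for its expression in the liver, had 24.1 and 7.23 TPM in stage III, against 0.16 and 0.16 TPM in stage II (log2 3.63, SE 0.92, limma adjusted p = 0.0922). Its stage III libraries were both above stage II but far apart from each other. vtg5 had 4.96 and 1.70 TPM in stage III and is listed at 0 in both stage II libraries.

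Of 17 tested lipid carrier genes 1 rose (5.88%) and 0 fell, against 2% and 0.529% of all tested genes. It was lpl, the lipase that frees fatty acids from lipoproteins, with 8.12 and 5.25 TPM in stage III, against 0.10 and 0.10 TPM in stage II (log2 2.78, SE 0.41, limma adjusted p = 0.0167). Of 23 tested glycolysis genes 1 rose (4.35%) and 0 fell, which was gapdhs, with 23.7 and 19.6 TPM in stage III, against 3.96 and 6.90 TPM in stage II (log2 1.85). Counts of 1 do not set these lists apart. By limma 0 genes were called among 31 of sterol and fatty acid synthesis (6 at an unadjusted p under 0.05), 23 of the vacuolar ATPase that acidifies yolk vesicles and lysosomes (2), 12 cathepsins (4), 27 histones (6) and 31 of DNA methylation and chromatin remodelling (4). After median-of-ratios scaling 1 cathepsin and 1 histone gene rose.

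The secretory pathway list had 1 rise and 1 fall among 40 genes (2.5% each, against 2% and 0.529% of all tested genes). Its median, -0.41 (-0.24 after median-of-ratios scaling), was below the -0.16 of all tested genes (0.00 after that scaling). pdia2, a protein disulfide isomerase that folds secreted proteins, had 136 and 121 TPM in stage III, against 14.8 and 25.3 TPM in stage II (log2 2.67, SE 0.39, limma adjusted p = 0.0158). It was highest in stage III, with 0.79 and 0.64 TPM in stage I and 14.7 and 32.5 TPM in stage IV. sec22bb, a vesicle fusion protein between the endoplasmic reticulum and the Golgi, had 40.1 and 44.2 TPM in stage III, against 79.9 and 80.1 TPM in stage II (log2 -0.91, SE 0.18, limma adjusted p = 0.0444). Of 53 tested proteasome genes 1 fell (1.89%, against 0.529% of all tested genes) and 0 rose. The gene was psmd11b, of the lid, with 19.0 and 20.5 TPM in stage III, against 38.6 and 37.4 TPM in stage II (log2 -0.91). Its call was lost after median-of-ratios scaling, under which 1 proteasome gene rose and 0 fell. After rescaling without the mitochondrially encoded genes neither psmd11b nor sec22bb was called.

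Of 27 tested immediate early and dissociation genes, which respond to stress or to the handling of tissue, 1 rose (3.70%, against 2% of all tested genes) and 0 fell, 9 had an unadjusted p under 0.05, and the median was 0.11. Their sum was 890 and 656 TPM in stage III, against 545 and 603 TPM in stage II, so that both stage III libraries lay above both of stage II. After median-of-ratios scaling 2 rose. egr1, a transcription factor gene induced within minutes of a stimulus, had 37.2 and 40.3 TPM in stage III, against 10.6 and 14.7 TPM in stage II (log2 1.56, SE 0.23, limma adjusted p = 0.0167). It was at 5.71 and 7.14 TPM in stage I and at 93.3 and 76.4 TPM in stage IV. The part of tissue handling in these values was not tested. Of 23 tested heat shock genes 1 rose (4.35%) and 0 fell, with 5 at an unadjusted p under 0.05 and a median of 0.09, and the gene that rose was the collagen chaperone gene serpinh1a, with 7.39 and 6.94 TPM in stage III, against 1.36 and 1.75 TPM in stage II (log2 1.68).

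Falls were ranked among genes that averaged 10 TPM or more in stage II. The 12 largest of these falls were of genes that averaged from 10.4 TPM (sall4) to 324 TPM (cpm) in stage II and had no common list. nagpa, whose enzyme completes the mannose 6-phosphate tag of lysosomal proteins, had 3.57 and 3.47 TPM in stage III, against 36.9 and 28.8 TPM in stage II (log2 -2.89, SE 0.38, limma adjusted p = 0.0131). btr02, of the bloodthirsty-related TRIM family, had 1.35 and 1.44 TPM in stage III, against 25.6 and 24 TPM in stage II (log2 -3.43, SE 0.67), and si:cabz01069013.3 had 3.54 and 1.21 TPM in stage III, against 35.1 and 33.9 TPM in stage II (log2 -3.49, SE 0.52). These genes were low in both stage III libraries, and btr02 and si:cabz01069013.3 were low in stage I as well. sall4, a zinc finger gene of pluripotent cells, had 1.65 and 2.04 TPM in stage III, against 11.0 and 9.70 TPM in stage II (log2 -2.0, SE 0.28). Called falls outside this ranking included hepacam2, named earlier (log2 -2.89, SE 0.25, limma adjusted p = 0.00356). The transporter gene slc47a2.2 was another, with 0.48 and 0.85 TPM in stage III, against 5.51 and 3.87 TPM in stage II (log2 -1.77, SE 0.28).

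The fall highest in level among the 12 was cpm, a membrane carboxypeptidase, with 134 and 75.9 TPM in stage III, against 353 and 294 TPM in stage II (log2 -1.67, SE 0.29, limma adjusted p = 0.0291). ccnf, the cyclin that serves as a subunit of a ubiquitin ligase, had 18.1 and 19.3 TPM in stage III, against 67.5 and 54.8 TPM in stage II (log2 -1.65), and the spindle gene ckap2l had 8.40 and 9.40 TPM in stage III, against 33.9 and 28.4 TPM in stage II (log2 -1.70). These 3 genes were lower still in stage IV, where cpm had 20.0 and 13.5 TPM. They were also below their stage II level in stage I. There cpm had 202 and 167 TPM, ccnf 41.6 and 20.7 TPM, and ckap2l 18.7 and 18.1 TPM. Their changes from stage I to II did not pass the test (limma adjusted p from 0.347 to 0.385). The other falls were CU207221.1 (-1.94), the transporter gene slc22a15 (-1.81), rgmb, a co-receptor of bone morphogenetic proteins (-1.67), efna5a, an ephrin ligand (-1.65), and smco4 (-1.65). The 12 had limma adjusted p-values from 0.0131 to 0.0484. Without 1 library, smco4 was called in 1 of the 4 fits and the other 11 in none.

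**Figure D5:**
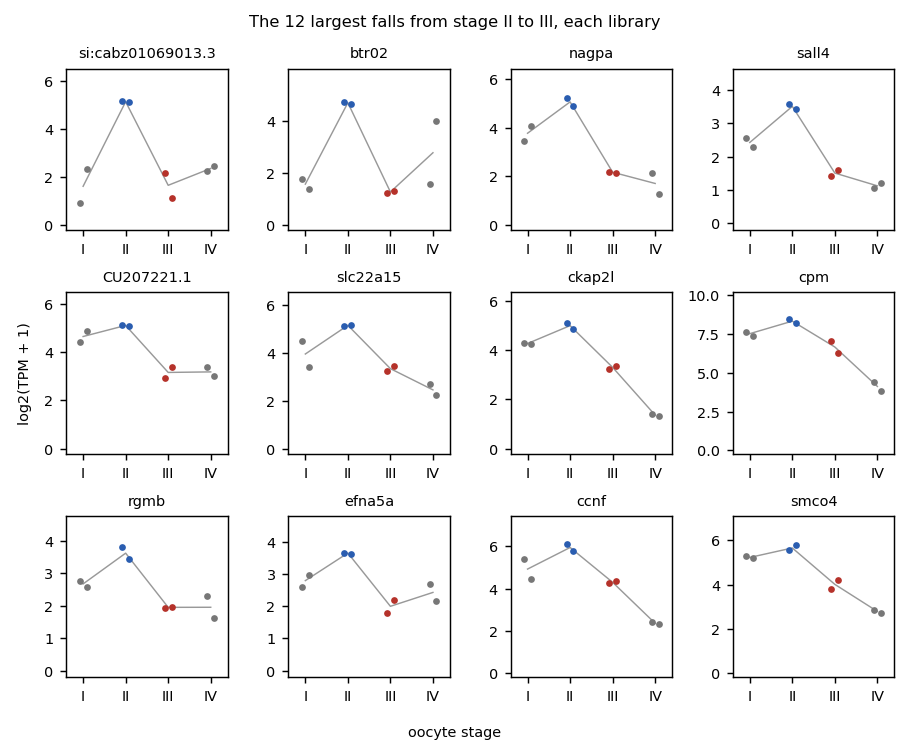
Level of the 12 genes with the largest fall (vertical axes, log2(TPM + 1)) in oocytes of stages I to IV (horizontal axes), with 1 point per library, stage III in red, stage II in blue, and a line through the stage means. Only genes that averaged 10 TPM or more in stage II were ranked. All points of stage III lie below those of stage II; ckap2l, cpm, ccnf and smco4 drop again in stage IV, while btr02 and si:cabz01069013.3 are high in stage II alone of the 4 stages, apart from 1 stage IV library for btr02.

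The neighbouring steps were tested in the same fit and share libraries with this one. At least 2-fold, 1573 genes (9.79%) were higher and 1486 (9.25%) lower in stage IV than in stage III, and 25 (0.156%) were higher and 3 (0.0187%) lower in stage II than in stage I. The change of stage III against II minus that of stage IV against III was tested by itself. It was positive for 120 genes (0.747%) and negative for 144 (0.896%) at least 2-fold. Of the 12 largest rises 9 were among the positive ones, which is a description, since the rises were picked on a change that enters the difference.

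The difference between the steps was largest among these for genes that peaked in stage III: 9.03 for MFAP4 copy B (SE 1.45, limma adjusted p = 0.0302), 8.86 for cyp19a1a (SE 1.13, adjusted p = 0.0170) and 8.37 for si:dkey-31e10.5 (SE 1.16, adjusted p = 0.0209). efemp2b, with 20.1 and 5.38 TPM in stage IV, also had its highest mean in stage III. Its difference between the steps was 5.35 (SE 0.99, limma adjusted p = 0.0465). Among the list members named above it was also positive for pdia2, at 5.16 (adjusted p = 0.0171, limma), and for hsd17b1, at 3.73 (adjusted p = 0.0465, limma), which had 23.1 and 42.9 TPM in stage IV. It was positive too for sox19b, at 1.85 (adjusted p = 0.0451, limma), which had 8.43 and 10.3 TPM in stage IV. It was negative for lhcgr, at -4.47 (adjusted p = 0.0107, limma), whose rise came in stage IV. Against the change of stage II against I, the difference was positive for 0 genes and negative for 4 (0.0249%) at least 2-fold.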

How the data were processed

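RNA of 50 pooled zebrafish oocytes per library was sequenced as 75 bp single reads from stranded, ribosomal-RNA-depleted libraries made from 100 ng of total RNA, per the labels' protocols. The authors deposited TPM per gene, scaled to a total of 1000000 in each library, so a value is a share and not an amount per oocyte. STAR 2.7.3a, RSEM and danRer11 are named in the submitters' processing notes, and the annotation release is not given in the sources used here. Since TPM keeps no read depth, no interval for counting error is given, and low values are the least precise.

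Tables were matched on the gene identifier. Names follow the embryo table, since 3757 of them differ in the oocyte table. Of the tested genes 522 share a symbol with another gene and are uncertain. No columns belonged to other samples (0 columns). The values, as log2(TPM + 1), were fitted with limma 3.58.1 (R 4.3.3) over all 8 oocyte libraries at once, with a mean trend in the empirical Bayes step. P-values were adjusted by Benjamini-Hochberg over 16067 genes. An adjusted p under 0.05 made a call, written as rose or fell, and counts over all genes also asked for a 2-fold change. The added 1 makes changes of low genes look smaller than they are. With 2 libraries a side an exact permutation test of 1 gene cannot go below 0.333. The fitting steps were tested on simulated data with planted changes. Each simulated gene had the same spread in every stage, so a spread that differs between stages was not tested.

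The series' design text calls the libraries biological replicates. The groups, the 37 gene lists and the rule for named genes were chosen with earlier results of these data known. The rule names the 12 largest rises and falls with a mean of at least 10 TPM, up to 4 called members of each list with at least 5 TPM, the 5 most abundant genes of each stage, and a fixed set of oocyte and follicle genes. Further list members and the genes called in every fit with 1 library left out were named after their values were seen. Alternatives were another pseudocount, other filters and scalings, only stages II and III in the fit, a replicate block, no mean trend, and each library left out. The reference held no sequences or coordinates on the authors' build, so none are printed.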

Additional observations from a re-analysis of the deposited data

How the results depend on the processing

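Summary counts of genes changed at least 2-fold were compared across 12 alternatives. With no filter on low values, 101 genes rose and 19 fell (104 and 23 with no fold minimum), with more genes tested. With only stages II and III in the fit, 121 genes fell (157 with no fold minimum), and 405 rose. Leaving out 1 library gave from 7 to 100 rises and from 1 to 22 falls, with the same counts with no fold minimum, and a lone library was then assumed to vary like the other stages. The other settings stayed within 1.5 times: a pseudocount of 0.1 gave 398 rises and 66 falls, a minimum of 5 TPM gave 274 and 60, median-of-ratios scaling 365 and 45, rescaling without the mitochondrially encoded genes 326 and 52, and no mean trend 349 and 77. The causes were not tested.

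The replicate numbers are shared between the stages, and whether equal numbers share fish or a batch is unknown here. The main fit did not pair the samples. Across genes, the replicate 1 deviations of stages III and II had r = 0.0750. With 2 libraries a stage this value cannot decide whether the samples are paired. With the replicate number as a block, 264 genes rose and 61 fell (269 and 81 with no fold minimum). Of the 62 called named genes, calls were lost for 37 with no filter, 12 with the replicate block and 9 after median-of-ratios scaling. Low genes are limited most, since depth is unknown.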

Other observations

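Membrane transporters of the solute carrier family were looked at after their values were seen, so no test of the family is given. Of 238 tested, 9 rose (3.78%) and 3 fell, where 2% of all tested genes rose and 0.529% fell. The median change was -0.20. Several that rose carry amino acids or neurotransmitters. slc38a2, a transporter of neutral amino acids, had 39.9 and 18.7 TPM in stage III, against 2.76 and 2.16 TPM in stage II (log2 3.04, SE 0.44, limma adjusted p = 0.0158). slc6a11a, of the GABA transporter family, had 16.4 and 10.4 TPM in stage III, against 0.63 and 0.45 TPM in stage II (log2 3.20), and slc6a4a, the serotonin transporter, had 14.2 and 7.98 TPM in stage III, against 0.58 and 0.48 TPM in stage II (log2 2.94). slc7a11, which exchanges cystine for glutamate, had 14.7 and 10.9 TPM in stage III, against 1.38 and 1.70 TPM in stage II (log2 2.43). Among the falls the zinc exporter gene slc30a1a had 8.28 and 6.70 TPM in stage III, against 22.1 and 22.3 TPM in stage II (log2 -1.46), and 66.1 and 44.7 TPM in stage IV.

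Large changes that the test did not call were also listed after seeing the data. Changes of at least 4 on the log2 scale were more often uncalled (14 genes) than called (10 genes). Of the 20 largest uncalled changes, 17 had a gap of at least 10-fold, on the TPM + 1 scale, between the 2 libraries of some stage, while 0 of the 12 named rises and 12 named falls had one. For most of the 17 the gap lay only in stage I or IV, outside the comparison, whose spread enters the shared fit. A wide spread in any stage makes a call less likely, so the contrast with the named genes is partly built in. A copy of crp2, ENSDARG00000056498, which shares its symbol with another gene and is uncertain, had 0.12 and 1.15 TPM in stage III, against 352 and 345 TPM in stage II (log2 -7.81, limma adjusted p = 0.0791), with 0.00 and 155 TPM in stage IV. AL929032.1 had 322 and 298 TPM in stage III, against 4.54 and 4.55 TPM in stage II (log2 5.81, limma adjusted p = 0.0757), with 205 and 4.05 TPM in stage I. sh2d1ab is listed at 0 in both stage III libraries, against 54.5 and 75.6 TPM in stage II, with 0.09 and 70.9 TPM in stage I. Of 10510 tested genes that reached 10 TPM in a library, 87 had such a gap in at least 1 stage: 31 in stage I, 1 in stage II, 26 in stage III and 46 in stage IV.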
